A study of Mus musculus with 6 samples.

Results

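Olfr1417 to Olfr1505 are olfactory receptor (OR) genes of the mouse that lie in neighbouring clusters on chromosome 19. The genes were taken as all names made of Olfr and a number within that range, without a pseudogene suffix. There were 60 of them among 1116 OR genes without a suffix and 24564 genes in all. GENCODE M21 (build GRCm38, the same as mm10) placed 59 of the 60 on chromosome 19, between positions 11826803 and 13921866. Olfr1433 was not matched by symbol.

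ORs are G protein-coupled receptors that bind odorants on the cilia of olfactory sensory neurons (OSNs). Each OSN expresses a single OR from a single allele, and the axons of OSNs with the same OR meet in the same glomeruli of the olfactory bulb. OR genes are silent in heterochromatin except for the chosen allele, and each OR is chosen within a zone along the dorsal to ventral axis of the epithelium. HP1β (gene Cbx1) and HP1α (gene Cbx5) are chromodomain proteins that bind methylated lysine 9 of histone H3.

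Cells of the main olfactory epithelium were sequenced singly in 6 libraries, each from a papain-dissociated suspension. The 2 swap libraries were labelled Cbx\*/\* and carried Cre. In this knock-in line the HP1β coding sequence is removed by Cre and HP1α is then made from the Cbx1 promoter. Of the 2 controls, control replicate 1 was labelled WT with Cre and control replicate 2 was labelled Cbx\*/\* without Cre, so that the controls differed in genotype. The other 2 libraries were of 1 tetOP2 mouse (gg8-tTA; tetOP2iresGFP), in which a transactivator of immature OSNs drives the receptor P2 (Olfr17), and of 1 gg8-tTA mouse (gg8tTA control). Ages are not given in the labels. The study's methods call the replicates of its single-cell experiment biological replicates, and the labels do not say how many animals went into a library.

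The libraries held 32005196 to 63277934 UMIs (unique molecular identifiers, the counted transcripts), and 57.5% to 100% of their barcodes passed the minimum of 1000 UMIs and 500 genes. Control replicate 2 kept the fewest. Mature OSNs were cells whose Omp UMIs numbered 10 or more and exceeded those of Gap43 (Omp marks mature and Gap43 immature OSNs). There were 679 to 1313 of them per library, with median depths of 11287 to 12958 UMIs. In their summed UMIs Cbx1 stood at 1.20 and 3.02 CPM (normalised counts scaled to a common library size) in the swap libraries against 86.2 and 134 CPM in the controls. Cbx5 stood at 83.1 and 100.1 CPM against 20.8 and 40.6 CPM, so that both genes followed the labels. On plain CPM, the scale of the marker levels below, Xist marked swap replicate 1 as female at 1204 CPM, against 0 to 0.0692 CPM in the other 3 swap and control libraries, which held Ddx3y at 20.0 to 32.2 CPM. The tetOP2 and gg8tTA control libraries had Xist at 1419 and 1349 CPM and Ddx3y at 0 CPM. Where the gg8tTA control is pooled with the controls below, the libraries thus differ in sex and in mouse line. Summed sustentacular markers in mature OSNs stood at 127 CPM in control replicate 1 and at 3348 to 5525 CPM in the other swap and control libraries. The part of sex, genotype and this RNA of other cells in the results was not tested. Libraries shared few barcodes, and 1 cell choosing these receptors in each swap library had a barcode also found in another library.

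Many of these receptors are close copies of each other, which matters for how reads can be told apart. Coding sequences from the GENCODE transcripts were aligned for 59 receptors in 1711 pairs. Of these pairs 18 were more than 90% identical and 9 more than 95%. The most alike were Olfr1502 and Olfr1505 (97.5%), followed by Olfr1471 and Olfr1474 (97.1%). Olfr1437, the receptor of these with the largest rise in choosing share in the swap libraries, had its nearest copy in Olfr1436 (95.3%), which no cell chose. Olfr1446 and Olfr1447, both without a UMI in mature swap OSNs, were 95.3% identical. The following 90-base stretches are those in which each pair differed most, with the differing bases in capitals (9 of 90 bases in the first pair and 12 of 90 in the second). They lie in the coding exon on the minus strand, at chr19:12298632-12298721, chr19:12322336-12322425, chr19:12890306-12890395 and chr19:12901509-12901598 of GRCm38.
Olfr1436: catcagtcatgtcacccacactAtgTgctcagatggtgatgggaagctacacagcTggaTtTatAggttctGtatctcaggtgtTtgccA
Olfr1437: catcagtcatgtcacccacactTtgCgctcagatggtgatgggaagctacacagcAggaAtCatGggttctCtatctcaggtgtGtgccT
Olfr1446: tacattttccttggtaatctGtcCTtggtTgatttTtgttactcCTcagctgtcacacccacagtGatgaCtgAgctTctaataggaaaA
Olfr1447: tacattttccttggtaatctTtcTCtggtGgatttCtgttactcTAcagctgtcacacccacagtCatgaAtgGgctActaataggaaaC
A library read from the 3′ end mostly samples sequence beyond these stretches, and how the counting treated reads that match several copies is not given in the sources used here.

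The region before the start of an OR gene is where its promoter binds homeodomain factors such as Lhx2 and factors of the Ebf family. RefSeq gave a window for 55 of the 60 receptors, but 46 of these windows lay more than 1000 bases from the most upstream GENCODE start. Only 4 lay within 200 bases of that start and apart from the start codon, those of Olfr1426, Olfr1437, Olfr1443 and Olfr1477. The 250 bases before the RefSeq start (build GRCm38.p6, minus strand) are shown for Olfr1437, chosen by more swap cells than control cells, at chr19:12325067-12325316, and for Olfr1426, chosen by fewer, at chr19:12091848-12092097.
Olfr1437: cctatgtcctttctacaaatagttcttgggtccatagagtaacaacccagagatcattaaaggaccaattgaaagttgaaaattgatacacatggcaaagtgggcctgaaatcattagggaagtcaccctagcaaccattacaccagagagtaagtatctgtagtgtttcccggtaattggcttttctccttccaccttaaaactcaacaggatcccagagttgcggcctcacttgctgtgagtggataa
Olfr1426: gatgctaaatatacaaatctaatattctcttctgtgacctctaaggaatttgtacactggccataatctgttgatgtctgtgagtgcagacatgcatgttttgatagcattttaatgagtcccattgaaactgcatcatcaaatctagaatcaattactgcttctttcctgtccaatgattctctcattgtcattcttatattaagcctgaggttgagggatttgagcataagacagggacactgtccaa
The homeodomain core TAATTA and an Ebf form (TCCC, any 2 bases, then GGGA) were searched on both strands and were in none of the 4 windows, so that no base is in capitals. TAATTA was in 4.84% of all 32851 RefSeq windows, in 18.1% of 944 OR windows and in 11 of the 55 windows of these receptors. The Ebf form was in 0.779% of all windows, in 0.424% of OR windows and in 0 of the 55.

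The chosen OR of a cell was its top OR, if it had at least 3 UMIs and more than the next. A chosen OR was found in 87.7% to 94.8% of mature OSNs, and 219 mature OSNs over the 6 libraries chose one of the 60 receptors. They chose 12 to 32 different receptors per library. Of the 60, 18 were chosen by 5 or more cells, 30 by 1 to 4 cells and 12 by no cell. The 12 were Olfr1432, Olfr1436, Olfr1445, Olfr1453, Olfr1462, Olfr1465, Olfr1474, Olfr1480, Olfr1496, Olfr1499, Olfr1502 and Olfr1504. Their GENCODE models ended with a median of 358 bases after the coding sequence, with 3 of 12 ending at the stop codon, against a median of 1386 bases and 1 of 47 for the annotated receptors that were chosen. The part of these short models in the count of 0 was not tested. Between 94.5% and 99.7% of the UMIs of these receptors in mature OSNs lay in the cells that chose them. In sustentacular cells (Cyp2g1 at 10 UMIs or more), which should lack ORs, 0% to 0.613% held 3 UMIs of 1 of these receptors, against 1.91% to 5.18% of mature OSNs. Median depths were 12392 to 18602 UMIs in these sustentacular cells, above those of the mature OSNs.

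The first question was whether these receptors together were chosen as often in swap OSNs as in controls. They took 4.63% (31 of 670 choosing cells, 95% exact binomial interval 3.17 to 6.50%) in swap replicate 1 and 4.44% (42 of 947, 3.21 to 5.95%) in swap replicate 2. They took 3.77% (36 of 956, 2.65 to 5.18%) in control replicate 1 and 5.32% (63 of 1185, 4.11 to 6.75%) in control replicate 2. The swap values lay between the control values, at 4.53% ± 0.136 (SD, n = 2) against 4.54% ± 1.10 (SD, n = 2; exact permutation p = 1, two-sided). With 2 libraries against 2, an exact permutation test cannot give a p below 0.333. Intervals cover counting error only, because cells of 1 library are not replicates.

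**Figure D1:**
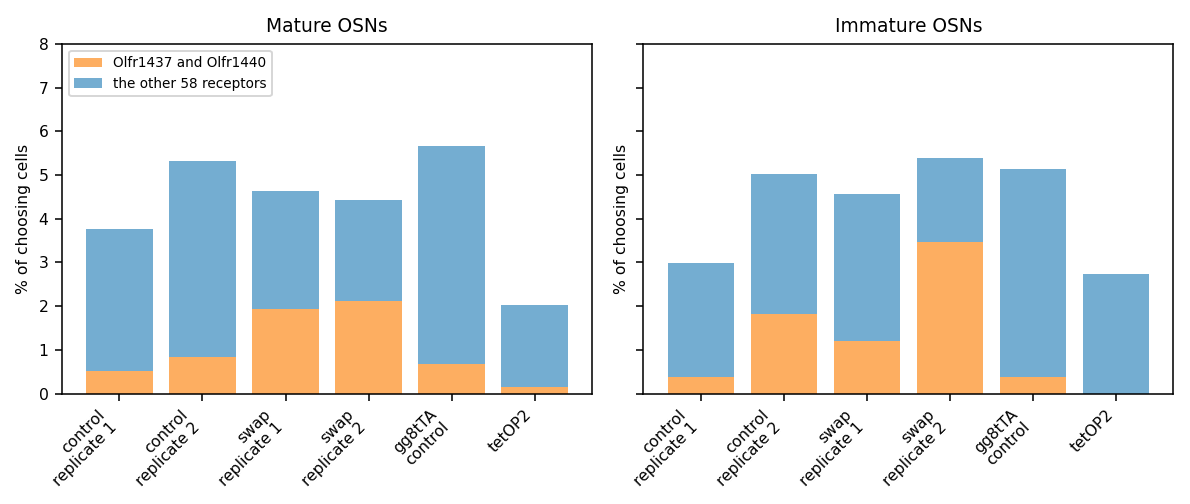
Share of choosing cells (%, vertical axis) that chose Olfr1437 or Olfr1440 (orange) and any of the other 58 receptors (blue) in each library, for mature (left) and immature OSNs (right). The orange part of the mature OSNs was 1.94% and 2.11% in the swap libraries, compared with 0.523% and 0.844% for the controls, while the full bars overlap.

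Within this share, 2 receptors stood above the rest. Olfr1437 and Olfr1440, neighbours at 12319207 to 12325101 and 12387279 to 12401584, were the 2 most chosen. Olfr1437 was chosen by 6 of 670 cells (0.896%) in swap replicate 1 and 9 of 947 (0.950%) in swap replicate 2. In the controls it was chosen by 2 of 956 cells (0.209%) and 3 of 1185 (0.253%). Both swap libraries stood above both controls, and the gg8tTA control had 2 of 600 cells (0.333%). Olfr1440 was chosen by 7 cells (1.04%) and 11 cells (1.16%) in the swap libraries, and by 3 cells (0.314%) and 7 cells (0.591%) in the controls. Again the groups did not overlap, and the gg8tTA control had 2 cells (0.333%). How many of all ORs had no overlap by choosing cells is not given here, so that the lack of overlap alone does not set these 2 apart. By choosing cells, Olfr1440 ranked 2 (tied) and Olfr1437 4 among all ORs over the pooled swap cells, and 11 and 79 (both tied) over the pooled controls. Together the pair made up 41.9% and 47.6% of the swap cells with one of the 60 receptors, against 13.9% and 15.9% of the control cells. Since the pair was taken as the most chosen over these same libraries, this split is a description without a test.

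The other 58 receptors took 2.69% and 2.32% of choosing cells in the swap libraries, compared with 3.24% and 4.47% for the controls. All 60 together averaged 4.53% in the swap libraries and 4.54% in the controls. Leaving out a pair that was higher in the swap libraries thus makes the remainder lower there, so that this is no separate result. Of the 60, 20 were chosen in both groups, 19 in the controls only, 5 in the swap libraries only and 16 in neither. Controls only was thus 31.7% of these receptors and swap only 8.33%, against 30.02% and 8.33% of all 1116 ORs. More control than swap cells had been read, so that the number of different receptors was computed for an equal 670 choosing cells of each library. That gave 15.0 and 14.3 receptors in the swap libraries, compared with 18.3 and 23.3 for the controls. The swap libraries held fewer, at 14.6 ± 0.516 (SD, n = 2) against 20.8 ± 3.55 (SD, n = 2; exact permutation p = 0.333, the smallest possible). The number in equal cells was not computed for all ORs, so that no fall particular to these receptors is shown.

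**Figure D2:**
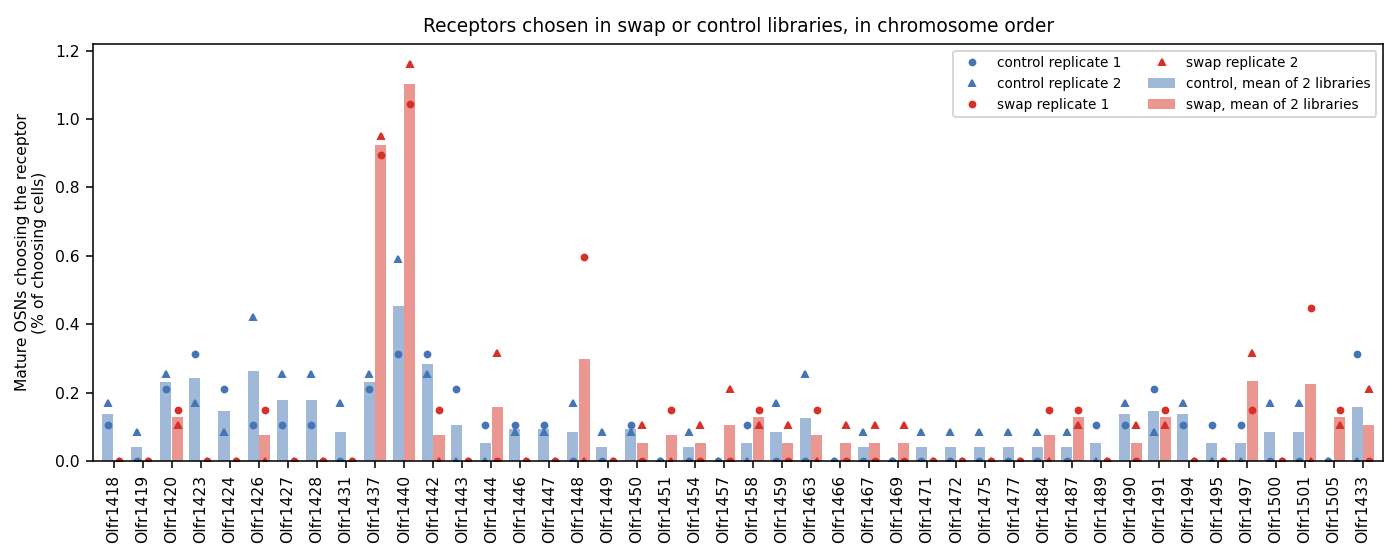
Share of choosing mature OSNs (%, vertical axis) for each receptor chosen in a swap or control library, in chromosome order with the unplaced Olfr1433 last. Bars are means of 2 libraries and points single libraries; Olfr1437 and Olfr1440 stand above all others in the swap libraries, at 0.896% to 1.16%.

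The receptors at the left end of the cluster, Olfr1418 to Olfr1428, were scarce in the swap libraries. This stretch was marked off after the counts were seen, and how often such a run occurs among other ORs was not tested. Olfr1423 was chosen by 0 and 0 swap cells and by 3 and 2 control cells, and Olfr1424 by 0 and 0 against 2 and 1. Olfr1427 and Olfr1428 were each chosen by 0 and 0 swap cells and by 1 and 3 control cells. A count of 0 allowed a share of up to 0.448% in swap replicate 1 and 0.317% in swap replicate 2, so that for a single receptor the absence of choosing cells was within what this depth allows. Olfr1426 was chosen by 1 and 0 swap cells against 1 and 5 control cells, and these groups did overlap when given as shares (0.149% and 0% against 0.105% and 0.422%). Olfr1420 was chosen by 1 and 1 swap cells against 2 and 3, and Olfr1418 by 0 and 0 against 1 and 2. All of these were found in the gg8tTA control except Olfr1418, Olfr1420 and Olfr1426, with 1 cell for Olfr1423 and 2 each for Olfr1424, Olfr1427 and Olfr1428.

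Further along the cluster the picture was mixed. Olfr1442 was chosen by 1 and 0 swap cells and 3 and 3 control cells. Olfr1494 was chosen by 0 and 0 against 1 and 2, and the near copies Olfr1446 and Olfr1447 each by 0 and 0 against 1 and 1. Olfr1448 had 4 cells in swap replicate 1 and 0 in swap replicate 2, against 0 and 2 in the controls. Olfr1501 was alike, with 3 and 0 against 0 and 2. Olfr1433 had 0 and 2 against 3 and 0, and Olfr1497 1 and 3 against 1 and 0. Olfr1491 was level, with 1 and 1 against 2 and 1, and Olfr1490 had 0 and 1 against 1 and 2. Olfr1463 had 1 and 0 against 0 and 3. As shares of choosing cells, Olfr1442, Olfr1446, Olfr1447 and Olfr1494 were lower in both swap libraries than in both controls and Olfr1497 was higher. Olfr1458, Olfr1487 and Olfr1505 were higher too, each with 1 and 1 swap cells, against 1 and 0, 0 and 1, and 0 and 0 control cells. These orders rest on at most 3 cells per library. For Olfr1458 the nearest swap and control shares were 0.1056% and 0.1046%, from 1 cell each. For Olfr1487 they were 0.1056% and 0.0844%, also from 1 cell each, so that these orders came from the number of cells read. The share of all ORs without overlap by choosing cells is not given here. In summed UMIs, another measure, 28.3% of the ORs tested were lower without overlap and 20.1% higher. For Olfr1433, Olfr1448, Olfr1463, Olfr1490, Olfr1491 and Olfr1501 the groups overlapped.

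The number of cells choosing each OR was tested for all ORs with 5 or more cells by edgeR's quasi-likelihood test. It called 4 of 299 ORs, a background of 1.34%, and 0 of the 11 receptors of this group that had 5 cells. Olfr1437 had a log2 fold change in cells of 1.93 ± 0.68 (SE, edgeR, Benjamini-Hochberg adjusted p = 0.127), and Olfr1440 of 1.23 ± 0.45 (SE, adjusted p = 0.222). The median over all 299 ORs was 0.34, and under TMM scaling it was -0.17, a shift that applies to these 2 values as well. DESeq2 called 0 ORs in this test. At an unadjusted p below 0.05 edgeR had these 2 receptors higher and 0 lower, against 8.03% of ORs higher and 5.69% lower. Under TMM scaling it had 1 of the 11 receptors higher and 1 lower, and 17 ORs higher and 45 lower, so that the balance over ORs turned.

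The level of each receptor was then compared in UMIs summed over all mature OSNs of a library. A lower sum can mean fewer cells with the receptor or less RNA per cell, which a sum cannot tell apart. No UMI was seen for 13 receptors in the 4 libraries, and 29 of the 60 passed the filter on low counts. Passing could rest on the group where a receptor is high. edgeR's quasi-likelihood test called 0 of 13339 genes (0%), and thus 0 of the 29, for an adjusted p under 0.05 with a log2 change of more than 0.58. Cbx1 itself was not called (edgeR adjusted p = 0.171). At an unadjusted p below 0.05, 9 of the 29 were lower and 2 higher, against 21.4% and 8.51% of the 576 ORs tested. The median log2 fold change was -0.85 over the 29 receptors and -0.19 over the 576 ORs tested. The gap between these medians depended on the processing. They were -0.46 and -0.31 with predicted doublets kept and -0.36 and -0.27 with the replicate number as a block. Without control replicate 1 they were -1.60 and -0.54, and without control replicate 2 they were 0.36 and -0.08. DESeq2 called 11 of 47 receptors tested, 9 lower and 2 higher, against 0.755% lower and 0.369% higher among all 18410 genes. Most genes it called were ORs, of which 13.6% of 937 were lower and 4.59% higher.

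The values behind those calls were as follows. Olfr1437 stood at 145 and 130.0 CPM in the swap libraries and at 37.0 and 34.1 CPM in the controls, a log2 fold change of 1.95 ± 0.20 (SE, edgeR adjusted p = 0.171, DESeq2 adjusted p = 4.7e-13). Olfr1440 stood at 84.5 and 112 CPM against 42.1 and 68.8 CPM, and was called by neither tool (edgeR log2 fold change 0.82 ± 0.33, SE). Olfr1423 stood at 0.301 and 0.275 CPM against 45.6 and 29.8 CPM, a log2 fold change of -7.00 ± 0.43 (SE, edgeR adjusted p = 0.166). For Olfr1437 and Olfr1423 the gap between the groups was wider than the difference within either, and for Olfr1440 it was narrower, without overlap. Olfr1420 stood at 6.41 and 12.1 CPM against 29.2 and 28.0 CPM (edgeR log2 fold change -1.62 ± 0.39, SE, adjusted p = 0.816).

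The other 7 receptors that DESeq2 called lower had 0 UMIs in both swap libraries. Their folds were set against a nominal floor of 3 UMIs over both libraries. Such a fold is no lower bound, since 1 choosing cell holds many UMIs. A count of 0 choosing cells allowed shares of up to 0.448% and 0.317%, above the shares of these receptors in both controls. Against the floor Olfr1427, with 401 and 1098 UMIs in the controls, was 377-fold lower in the swap libraries. Olfr1494 had 161 and 531 UMIs (174-fold lower). Olfr1424 had 337 and 175 UMIs (129-fold lower). Olfr1446 had 221 and 228 UMIs (113-fold lower), and its near copy Olfr1447 had 81 and 340 (106-fold lower). With cells of 3 or more Omp UMIs taken as mature, their edgeR log2 fold changes went from -10.7 and -10.4 to -6.32 and -7.94. Olfr1428 had 99 and 296 UMIs (99.3-fold lower), and Olfr1418 had 56 and 153 (52.6-fold lower). These UMIs came from 1 to 3 choosing cells per control library, so that each fold rests on whether a few cells were sampled. Olfr1505 was the reverse, with 19 and 77 UMIs in the swap libraries from 1 cell each and 0 in both controls, 42.4-fold higher on the same floor.

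The calls depended on the libraries and the tool. Without control replicate 1 edgeR called 17 of 37 receptors tested, 12 lower and 5 higher, where it called 2% of 14123 genes and, of 734 ORs, 25.5% lower and 9.54% higher. Without control replicate 2 it called 14 of 35, 11 lower and 3 higher, where it called 5.41% of 13814 genes and, of 712 ORs, 26.5% lower and 11.2% higher. Without either swap library it called 0. Counted without a test, 11 of the 29 receptors had both swap libraries below both controls and 6 had both above. Among all genes tested these shares were 8.76% and 10.3%, and among the 576 ORs tested 28.3% and 20.1%. No test was made of the difference between these receptors and other ORs.

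**Figure D3:**
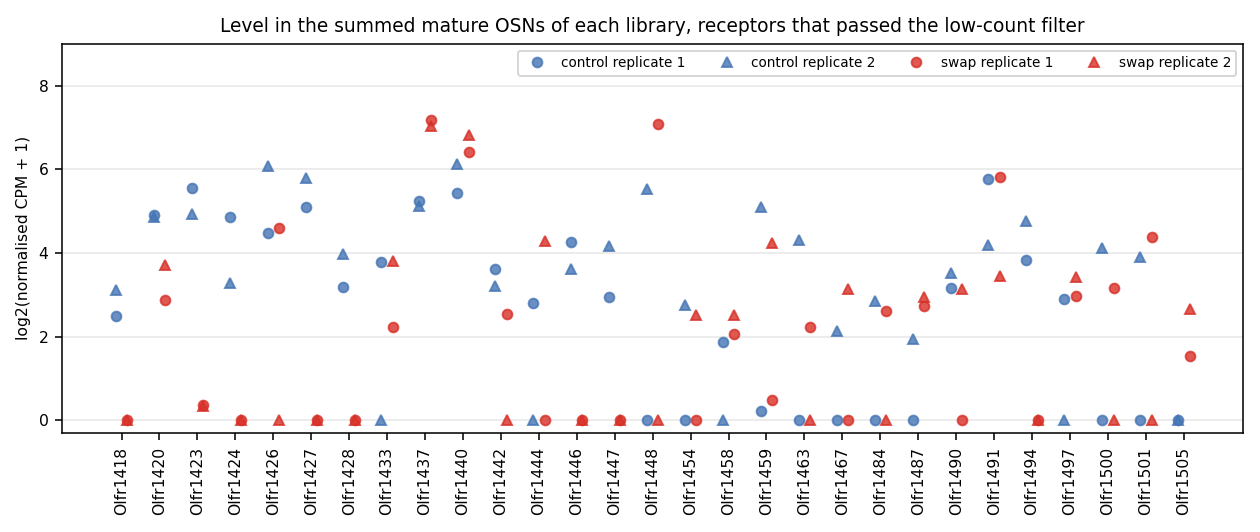
Level of the 29 receptors that passed the filter, as log2(normalised CPM + 1) on the vertical axis, in the summed mature OSNs of each swap (red) and control (blue) library. Olfr1418, Olfr1424, Olfr1427, Olfr1428, Olfr1446, Olfr1447 and Olfr1494 lie at 0 in both swap libraries, and Olfr1437 lies above both controls.

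RefSeq names group the receptors into MOR families, groups of ORs alike in sequence, for 57 of the 60. The families were looked at after the counts were known, and the following is a description. The 6 receptors of MOR239 (Olfr1423 to Olfr1428) took 0.149% and 0% of choosing cells in the swap libraries, compared with 0.837% and 1.18% for the controls, in 1 cell against 22. The 8 of MOR266 lie at the left end of the cluster (Olfr1417 to Olfr1420) and towards its right end (Olfr1490 to Olfr1495). They took 0.299% and 0.317% against 0.837% and 0.928%, in 5 cells against 19. In the gg8tTA control MOR239 and MOR266 took 1.33% and 1.17%, near or above the controls. The 5 receptors of MOR214 and MOR215, which include Olfr1437 and Olfr1440, took 1.94% and 2.11% against 0.523% and 1.01%. The 30 of MOR202, the middle of the cluster, took 1.34% and 1.27% against 1.05% and 1.86%, with the swap libraries between the controls. The 8 of MOR127, MOR211 and MOR212 at the right end took 0.746% and 0.422% against 0.105% and 0.338%, in 9 cells against 5.

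The same choice was read in immature OSNs, cells with at least 10 Gap43 UMIs and at least as many Gap43 as Omp UMIs. The receptors took 4.57% and 5.38% of choosing immature cells in the swap libraries, compared with 2.98% and 5.02% for the controls. The groups overlapped, as did the exact intervals of the libraries (2.92 to 6.78% and 2.97 to 8.87% against 1.71 to 4.79% and 2.53 to 8.81%), and the exact permutation p was 0.667. Olfr1440 was chosen by 5 and 5 immature swap cells and by 2 and 1 immature control cells. Olfr1437 was chosen by 1 and 4 against 0 and 3. Receptors without a mature swap cell did occur in immature swap cells, with 2 cells each for Olfr1446 and Olfr1447 in swap replicate 1 and 1 each for Olfr1423 and Olfr1424. The cell for Olfr1423 held 118 UMIs of it and 111 of Olfr330, so that its choice was close to a tie. The 6 of MOR239 together had 2 and 2 immature swap cells against 1 and 0 in the controls.

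Zonal markers were then read in the cells that chose each receptor. The dorsoventral score of a cell is the mean of its ventral markers (the Nfi factors Nfia, Nfib and Nfix with Ncam2 and Nrp2) less the mean of its dorsal ones (Nqo1, Acsm4, Robo2 and Sema3f), each in SD units of the control mature OSNs of its own mouse line. A higher score is more ventral. Cells choosing these receptors had mean scores of 0.409 and 0.381 in the controls, 0.390 in the gg8tTA control and 0.527 in the tetOP2 library. Cells choosing other ORs had -0.0020 and 0.0442 in the controls, -0.0355 in the gg8tTA control and 0.341 in the tetOP2 library. By this score the receptors stood on the ventral side of the other ORs in all 6 libraries, by 0.186 to 0.495, a difference that was not tested. Nqo1, the enzyme that marks dorsal OSNs, was at 179 and 258 CPM in their control cells against 546 and 508 CPM in the other control cells. Nfix was higher in their control cells, at 511 and 464 CPM against 369 and 370 CPM. Some markers went the other way in all 6 libraries. In the controls Nfia was at 10.65 and 38.9 CPM against 23.0 and 51.1 CPM. Cidea, listed as ventral but not scored, was at 192 and 78.8 CPM against 263 and 141 CPM. Cd55, listed as dorsal but not scored, was at 102 and 255 CPM against 67.0 and 159 CPM.

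In the swap libraries the cells choosing these receptors had mean scores of 0.288 and 0.201, below both controls. The swap mean was 0.244 ± 0.0618 (SD, n = 2), the control mean was 0.395 ± 0.0193 (SD, n = 2), and the exact permutation p was 0.333, the smallest possible. Cells choosing other ORs stood at -0.207 and -0.214 in the swap libraries, so that they too were lower there. The share of cells with Nqo1, each thinned to 3000 UMIs, was 12.9% and 9.76% in the swap libraries, compared with 13.9% and 20.6% for the controls. That difference of -5.93 percentage points (exact permutation p = 0.333) turned to 0.576 without thinning, where the shares were 22.6% and 19.05% against 16.7% and 23.8%. The direction of the Nqo1 share thus depended on the thinning.

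A position was given to each OR from the gg8tTA control and the control library of the other number, for ORs with at least 3 cells, and the most ventral 25% were called ventral. In the swap libraries 2 of 23 and 2 of 24 scored cells had chosen a ventral receptor of this group (8.70% and 8.33%). In the controls 8 of 22 and 3 of 30 had (36.4% and 10.0%). The difference rested on control replicate 1 (exact permutation p = 0.333), with 3 or 2 of these receptors in the ventral class, and with a wider ventral class (the more ventral of the scored ORs, split at their median) it was 11.2 percentage points, in the other direction.

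Single receptors differed far more than the groups. Only Olfr1440 had 8 or more cells in the 3 control libraries together, the minimum planned for naming positions, so that receptors chosen by 5 or more cells in all 6 libraries are given as a description. Over the cells of all 6 libraries together, the most ventral were Olfr1420, at 0.98 ± 0.49 (SD over 7 cells), and Olfr1463, at 0.94 ± 0.64 (SD over 7 cells). In the 3 control libraries alone the order among these receptors differed, with Olfr1433 at 0.98 over 3 cells, Olfr1420 at 0.95 over 5, Olfr1424 at 0.89 over 5, Olfr1423 at 0.86 over 6 and Olfr1463 at 0.84 over 6. Most dorsal were Olfr1448 at -1.16 ± 0.58 (SD over 7 cells) and Olfr1497 at -1.11 ± 0.33 (SD over 5 cells). Nqo1 was found in 6 of 7 cells with Olfr1448 and 5 of 5 with Olfr1497, and in 0 of 7 with Olfr1420 and 0 of 7 with Olfr1463. The cells with Olfr1497 held no UMI of Ncam2, a ventral adhesion molecule, and those with Olfr1420 held it in 7 of 7. Neighbours on the chromosome could differ: Olfr1446 and Olfr1447 scored 0.741 and 0.275 over 3 cells each of the 3 control libraries. Their neighbour Olfr1448 scored -1.27 over 3. Mean scores of the placed receptors from Olfr1417 to Olfr1443 ran from 0.229 (Olfr1419) to 1.47 (Olfr1425) in these libraries. From Olfr1444 on they ran from -2.44 (Olfr1449) to 1.17 (Olfr1461). Several of these means rest on 1 cell, and no test was made.

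**Figure D4:**
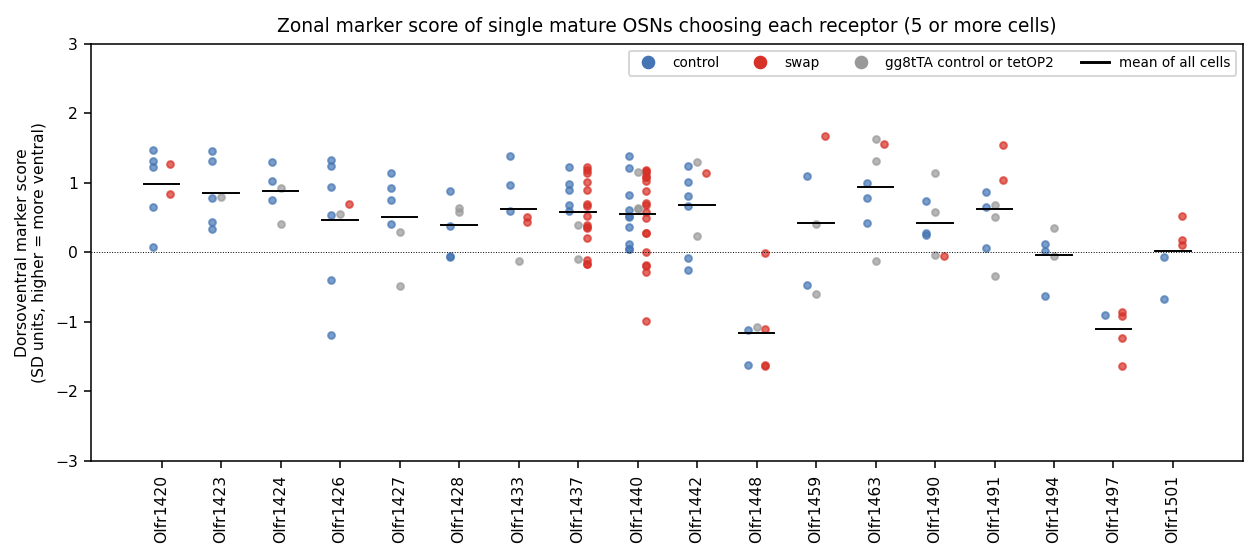
Dorsoventral marker score (SD units, vertical axis, higher is more ventral) of each mature OSN choosing a receptor with 5 or more cells in the 6 libraries. Each point is a cell, coloured by group, and the black lines are means; Olfr1448 and Olfr1497 lie near -1 and most other receptors between 0 and 1.

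The scores of receptors that were more or less often chosen in the swap libraries were set side by side. Cells with Olfr1437 scored 0.669 ± 0.434 (SD over 7 cells) in the 3 control libraries and 0.547 ± 0.482 (SD over 15 cells) in the swap libraries. By library they scored 1.11 and 0.723 in the controls, 0.405 and 0.641 in the swap libraries and 0.152 in the gg8tTA control. Both swap libraries were thus below both controls and above the gg8tTA control. The control values rest on 2 and 3 cells. Cells with Olfr1440 scored 0.578 ± 0.423 (SD over 12 cells) and 0.498 ± 0.624 (SD over 18 cells). By library these were 0.414 and 0.631 in the controls, 0.527 and 0.480 in the swap libraries and 0.635 in the gg8tTA control. Cells of the control libraries with Olfr1423, Olfr1424, Olfr1427 and Olfr1428 scored 0.855, 0.886, 0.503 and 0.396. Scores beyond this range occurred on both sides: Olfr1497, more often chosen in the swap libraries, scored -0.90 in its 1 cell of the control libraries, and of those less often chosen Olfr1494 scored -0.04 over 5 cells and Olfr1418 1.28 over 3. Most of these means rest on few cells, and no test was made.

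Beside the score, the cells of single receptors carried their own levels of zonal markers outside it. Cd55, a regulator of complement on the cell surface listed here as a dorsal marker, was found in 28 of 31 cells with Olfr1440, at 908 CPM over all 6 libraries. It was found in 3 of 3 and 7 of 7 control cells, at 6 to 41 UMIs per cell. Among the swap cells it was found in 6 of 7 and 9 of 11, and their Cd55 ran from 0 to 51 UMIs. By library it stood at 937 and 1136 CPM in the controls, 316 and 1015 CPM in the swap libraries, 1286 CPM in the gg8tTA control and 156 CPM in the 1 tetOP2 cell. By this level Olfr1440 ranked 8 of the 394 ORs with 5 or more cells. With Cd55 listed as dorsal, this went against the score, which was on the ventral side for Olfr1440, at 0.55 ± 0.55 (SD over 31 cells). The listing itself was not borne out here, as Cd55 was at 0 CPM in cells with the dorsal Olfr1448 and Olfr1497. It was also at 0 CPM in cells with the ventral Olfr1463. Cells with Olfr1437, the neighbour of Olfr1440 on the chromosome and at a like zonal score, held Cd55 in 2 of 22, at 6.55 CPM. Cidea, a lipid droplet protein used as a zonal marker, was found in 5 of 6 cells with Olfr1427 at 459 CPM and in 7 of 7 with Olfr1463 at 268 CPM. Cidea was also in 4 of 5 cells with Olfr1497, among the most dorsal by score, at 376 CPM. By Cidea level Olfr1427 ranked 38, Olfr1497 59 and Olfr1463 99 of the 394 ORs. In cells with Olfr1440 it was found in 3 of 31 at 10.6 CPM, and in cells with Olfr1437 in 7 of 22 at 26.2 CPM. Rprm was found in 4 of 7 cells with Olfr1463 and in 0 of 31 with Olfr1440.

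**Figure D5:**
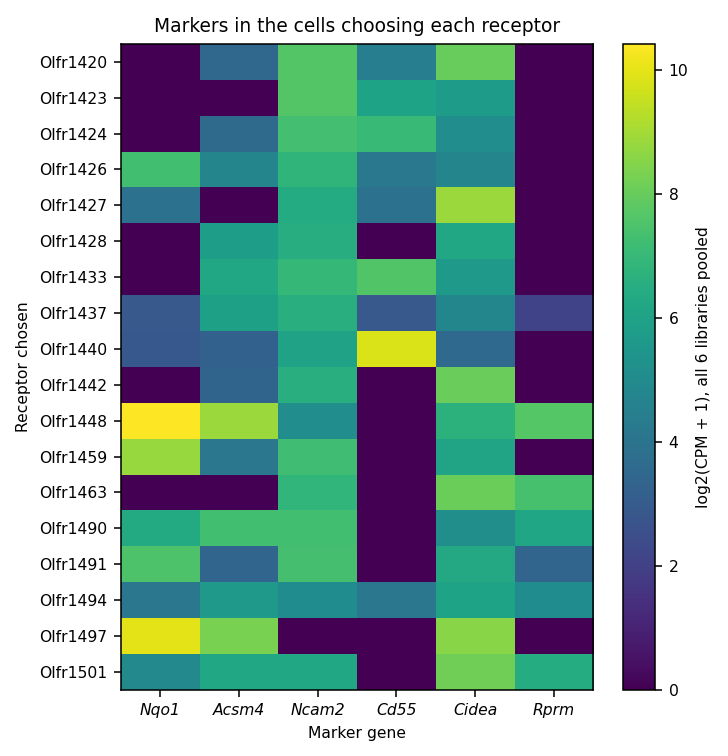
Level of 6 marker genes, as log2(CPM + 1) by colour, in the pooled mature OSNs choosing each receptor with 5 or more cells in the 6 libraries. Cd55 is highest in cells with Olfr1440 (908 CPM), and Nqo1 in cells with Olfr1448 (1366 CPM) and Olfr1497 (1004 CPM).

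How much of its receptor a cell made was compared after thinning each cell to 3000 UMIs, which left out 1 swap cell too shallow for it. The median was 27 and 30 UMIs in the swap libraries, compared with 33 and 27 for the controls, so that the groups overlapped (exact permutation p = 1). Cells choosing other ORs had medians of 15 and 22 UMIs in the swap libraries, compared with 17 and 22 for the controls, below these receptors in all 4. For Olfr1437 the median was 53 UMIs in swap cells and 49 in control cells, and for Olfr1440 35 and 31. Without thinning, cells with Olfr1437 held 110 to 366 UMIs over the swap libraries and from 207 to 240 over the controls. Levels also differed between receptors, from medians of 14.5 and 15.0 thinned UMIs for Olfr1433 and Olfr1442 to 81.0 and 85.5 for Olfr1448 and Olfr1427, among receptors with 5 or more cells. These are UMIs not scaled by gene length.

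Of the cells choosing these receptors, 1 and 0 swap cells and 0 and 6 control cells also held 3 or more UMIs of another OR. In control replicate 2 that was 9.52% of cells, near the 8.91% of cells choosing other ORs there. Over all 6 libraries several of these pairs were near copies, each with a few UMIs of the second. A cell with 340 UMIs of Olfr1447 held 3 of Olfr1446, a cell with 402 of Olfr1425 held 4 of Olfr1424, a cell with 23 of Olfr1471 held 8 of Olfr1474, and a cell with 78 of Olfr1484 held 6 of Olfr1487. Other pairs were of unlike receptors at high levels of both, such as 245 UMIs of Olfr1437 with 82 of Olfr798.

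The tetOP2 and gg8tTA control libraries show these receptors where Olfr17 is forced. Olfr17 was chosen by 379 of 644 cells (58.9%) in tetOP2 and by 1 of 600 (0.167%) in its control. The receptors took 2.02% of choosing cells (13 cells, exact interval 1.08 to 3.43%) against 5.67% (34 cells, 3.96 to 7.83%). Among the cells that had not chosen Olfr17 they took 4.91% (2.64 to 8.24%) against 5.68% (3.96 to 7.84%), and these intervals overlapped. With 1 library a group the difference has no replicate check and no test.

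A list of 32 genes of OR choice and feedback, such as the transcription factor Lhx2, its cofactor Ldb1 and Eif2ak3, a kinase of the unfolded protein response, was tested beside the receptors. All 32 passed the filter, 0 were called by edgeR or DESeq2, and 0 had an unadjusted p below 0.05 by edgeR. Over all genes edgeR called 0 of 13339, and DESeq2 called 0.755% of 18410 lower and 0.369% higher. With so few calls, 0 of 32 does not show that these genes were unchanged. The share of all genes with such an unadjusted p is not given here. Mature OSN markers summed to 6239 and 8288 CPM in the swap libraries against 6449 and 8929 CPM in the controls, and those of immature OSNs to 2154 and 1558 against 1995 and 1676 CPM. Of other cell types, macrophage markers were at 35.7 and 1.2 CPM in the swap libraries against 2.1 and 3.0, erythroid ones at 8.3 and 10.0 against 30.2 and 24.2, and neutrophil ones at 63.3 and 30.2 against 17.6 and 29.9 CPM. B cell, microvillar, horizontal basal, and globose basal and precursor markers each summed to at most 10.2 CPM in these 4 libraries.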

How the data were processed

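Per the labels, single-cell 3′ libraries were made from dissociated main olfactory epithelium. The authors deposited raw UMI counts per gene and barcode from Cell Ranger with intronic reads, and the submitters' processing notes name mm10. Part of the genotype labels is not reported here. Barcodes of under 1000 UMIs or 500 genes were dropped, and predicted doublets (53 to 207 a library) were removed by a score against simulated doublets. The receptors and gene lists were chosen with earlier results of these data known. UMIs of mature OSNs were summed per library and tested with edgeR 4.0.16 (quasi-likelihood, filterByExpr, TMM; R 4.3.3), calling genes of adjusted p under 0.05 with a log2 change over 0.58. Cells choosing each OR were tested likewise, with the choosing cells as library size and a minimum of 5 cells. The SE given with an edgeR log2 fold change was derived as the size of the change over the square root of the F statistic. DESeq2 1.42.0 was an alternative. Library values were compared by exact two-sided permutation tests (scipy 1.17.1). The scripts were tested on simulated data. Receptors were named by number of choosing cells, by change in share, by zonal score and by sequence likeness, and others were named after their values were seen. Coding sequences came from GENCODE M21 transcripts and upstream windows and MOR names from RefSeq.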

Additional observations from a re-analysis of the deposited data

Results flagged for a closer look

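For the 6 receptors of the MOR239 family as a group, the swap and control shares were ordered one way in mature OSNs and the other way in immature OSNs. In mature OSNs they took 0.149% and 0% of choosing cells in the swap libraries, compared with 0.837% and 1.18% for the controls, a difference of -0.934 percentage points. In immature OSNs they took 0.398% and 0.769% in the swap libraries, compared with 0.186% and 0% for the controls, a difference of 0.490 percentage points in the other direction. The immature difference less the mature one was 1.42 percentage points. The immature values rest on 4 swap cells and 1 control cell, and 1 of these swap cells held 118 UMIs of Olfr1423 and 111 of Olfr330. A count of 0 allowed up to 0.559% and 1.37% in the immature control cells. Thus no change of the single receptors is shown, and the difference between the stages was not tested.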

How the results depend on the processing

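With 2 libraries against 2, no exact test could pass a threshold, so that stability below means direction. The difference in the receptors' share of choosing cells was 0.135 percentage points once cells with a second OR were left out, and -0.785 to 0.765 when each library was left out in turn. The immature share ranged from -0.0442 to 2.00 points, the receptors in 670 cells from -8.64 to -3.62, the zonal score from -0.194 to -0.107 and the Nqo1 share from -9.31 to -2.56 points, which became 0.576 without thinning. UMIs per choosing cell differed by -4.5 to 1.5, by 0.25 with doublets kept and by 3 in the second replicates alone, both male, a choice made after seeing the data. The ventral share ranged from -14.8 to -14.5 points when either swap library was left out, with both controls kept. It was -1.67 points in the second replicates alone, gave no value without either control library, and was 11.2 points with the wider class. In summed UMIs 11 receptors were called by DESeq2, and 0 to 17 by edgeR when a library was left out (17 without control replicate 1 and 14 without control replicate 2), where the lone library is assumed to vary like the others. The cause was not tested. By choosing cells 0 were called with any library left out. With a replicate block 0 receptors were called in summed UMIs and 0 by choosing cells. The labels do not say that numbers pair the libraries, and deviations of same-numbered libraries correlated at 0.284 over 13339 genes and at -0.406 over the 29 receptors tested. Over these results 82 alternative values kept their direction and side of the threshold, 9 reversed, 3 gave more calls and 1 gave no difference. Many of the 82 are 0 calls against 0 calls. Others share only the sign of the main difference in the share of choosing cells, which was -0.0101 points. Alternatives for single receptors are not in this tally. Single receptors have few cells, which limits every fold given.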
